A study of Rattus norvegicus with 13 samples.

Results

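The effect of ethanol that rat liver showed at both levels of energy intake was examined by setting all 7 arrays of the ethanol groups against all 6 arrays of the control groups, within each energy level. These are all 13 of the series' 13 samples, 6 at the higher level and 7 at the lower. Each sample was hepatic RNA of time-mated female Sprague Dawley rats on 1 Affymetrix rat array of 8799 probe sets. TEN-220 (n = 3) was the control group, on a diet without ethanol at 220 kcal/kg3/4/d, that is, energy per unit of metabolic body size. EtOH-220 (n = 3) had a diet with 12 g ethanol/kg/d at the same energy. The 3 TEN-160 arrays came from undernourished controls, without ethanol at 160 kcal/kg3/4/d, and the 4 EtOH-160 arrays from undernourished rats with 12 g ethanol/kg/d. All 4 groups share the strain, the sex and the timed mating. The rats' age, the day of gestation and whether animals were pooled for an array are not given in the sources used here. Each p-value covers no more than the spread among these 13 arrays, which may be technical in part.

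The liver removes most ingested ethanol. Alcohol dehydrogenase in the cytosol, the microsomal cytochrome P450 CYP2E1 and, to a lesser extent, catalase oxidise it to acetaldehyde, and aldehyde dehydrogenases turn that into acetate. This raises the ratio of reduced to oxidised NAD, which slows gluconeogenesis and fatty acid oxidation, and ethanol is known to disturb the methionine cycle, in which homocysteine is turned back into methionine. Hepatocytes near the portal vein carry most of the urea cycle and of gluconeogenesis, and those around the central vein carry glutamine synthetase and much of the P450 system. Hepatocytes also secrete the acute phase, complement and coagulation proteins of plasma.

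Of 8740 probe sets other than controls, the 5244 with the highest mean signal were tested, and 4308 of these named exactly 1 gene, 3129 genes in all. Signals are in the units of the scanner software after scaling, and the level below which a probe set was not told apart from background was 46.6, taken from 19 control probe sets for non-rat sequences (their 95th percentile). A change is ethanol minus control in mean log2 signal, so that 1.00 is a doubling, and the average change is the mean of the changes at the 2 energy levels. A probe set was called where limma's test of the average gave a Benjamini-Hochberg adjusted p under 0.05 over all tested. Arrays of TEN-160 differed from the other 10 as a group. Their scores on the first principal component, which held 30.1% of the variance, were 30.5 to 41.6 against -13.8 to -2.63, and the signal ratio of 2 probe sets of a spiked bacterial control, BioDn-5 to BioDn-3, was 0.422 to 0.497 against 0.132 to 0.210. The 3'/5' signal ratio of GAPDH, a measure of RNA quality, was lower with ethanol at 220 kcal (1.04 to 1.47 against 1.52 to 2.32) and higher with ethanol at 160 kcal (1.50 to 1.73 against 1.03 to 1.24). The ratio of actin overlapped within each level. TEN-160 lay wholly above or wholly below all other arrays for 15.4% of tested probe sets, for 278 of the 493 called in the average and for 22 of the 120 that pass at both levels as described next. The part of these differences between arrays in the results was not tested. Without the TEN-160 arrays only the comparison at 220 kcal is left, so a change given for 220 kcal is a value without them.

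Over all genes, the ethanol changes at the 2 energy levels were not correlated. Across the 5244 probe sets, which are not independent, the change at 160 kcal had a Pearson correlation of 0.00775 and a Spearman correlation of 0.00424 with the change at 220 kcal, and 49.4% had the same sign at both. The 2 comparisons share no array, and all probe sets share the 13 libraries. In the average, 493 probe sets (9.4%) were called, 233 higher (4.44%) and 260 lower (4.96%) with ethanol. Of these, 414 had the same sign at both levels, 190 higher and 224 lower, and 79 had opposite signs. The average rested more on the lower energy level, with 389 of the 414 at an unadjusted p under 0.05 at 160 kcal and 145 at 220 kcal. In the same fit to all 13 arrays, the change at 160 kcal was called for 22.2% of probe sets and that at 220 kcal for 1 probe set (0.0191%). Centring each array on its median moved the split of the called probe sets from 47.3% higher to 59.8% higher. With the values as deposited, in which TEN-220 replicate 1 is not scaled to the other arrays, 103 were called, 94.2% of them higher, and the median change of all probe sets was 0.29 in place of -0.03.

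A probe set is described here as changed at both levels where it was called in the average and had, at each level, the same sign and an unadjusted p under 0.05. There were 120 such probe sets (2.29%), 66 higher (1.26%) and 54 lower (1.03%) with ethanol. Of them, 102 named exactly 1 gene and stood for 95 genes, 50 higher and 45 lower. In 75 of the 120 (1.43% of all tested) the ethanol and control arrays did not overlap at either level. Over all tested probe sets, non-overlap at both levels occurred in the same direction in 3.3% and in opposite directions in 2.46%. Without regard to the average, 128 probe sets had an unadjusted p under 0.05 at each level with the same sign, and 94 with opposite signs. The difference between levels was itself called for 7.7% of all probe sets and for 1 of the 120. A stricter conjunction, which adjusts the larger of limma's 2 p-values, called 0, with a smallest adjusted p of 0.715. The change was larger at 160 kcal in 87 of the 120 and larger at 220 kcal in 33. The count of 120 fell to 71 without TEN-220 replicate 1 and to 78 without EtOH-220 replicate 3. The count of 414 fell to 238, 260 and 274 without TEN-220 replicates 1, 2 and 3, to 255 without EtOH-220 replicate 3 and to 265 without TEN-160 replicate 1. The count of 493 fell to 268, 298 and 324 without TEN-220 replicates 1, 2 and 3, to 326 and 300 without EtOH-220 replicates 2 and 3, and to 321 without TEN-160 replicate 1.

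**Figure D1:**
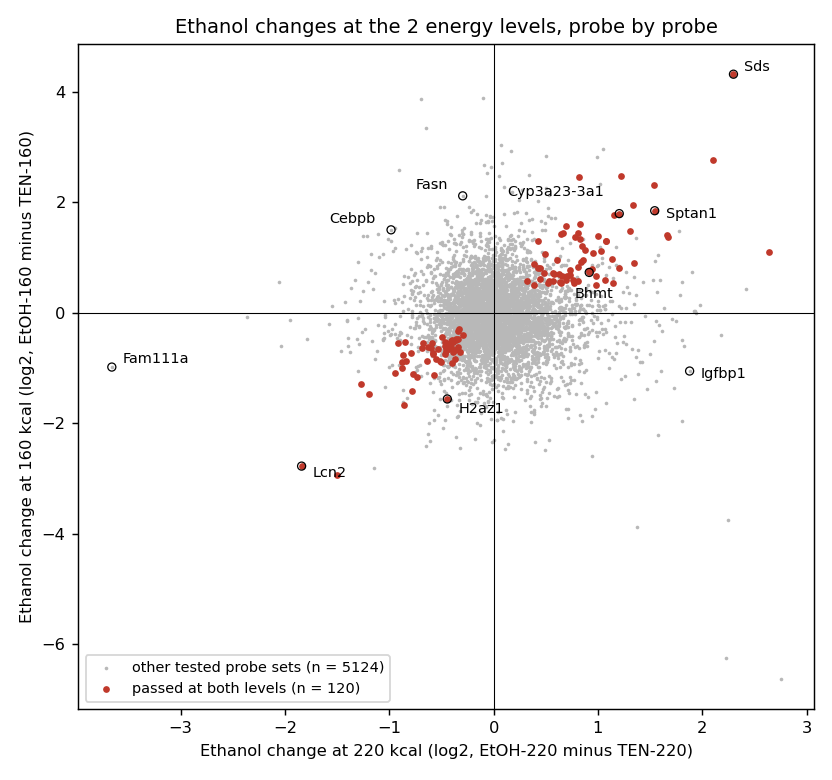
Each point is 1 of 5244 tested probe sets, with its ethanol change (log2) at 220 kcal on the x axis and at 160 kcal on the y axis; red marks the 120 changed at both levels. The cloud as a whole shows no slope (Pearson correlation 0.00775), and the red points fill the upper right (66) and the lower left (54).

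Sds, an enzyme of serine breakdown, had the largest rise among the genes changed at both levels, and Lcn2, a plasma protein of inflammation, the largest fall. Among those whose arrays did not overlap at either level, the 15 with the largest average rise ran from Sds (3.31) to Asl (1.05), and the 15 with the largest average fall from Lcn2 (-2.31) to Fgb (-0.66). These 30 were chosen for their size, call and separation, so their values are a description.

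**Figure D2:**
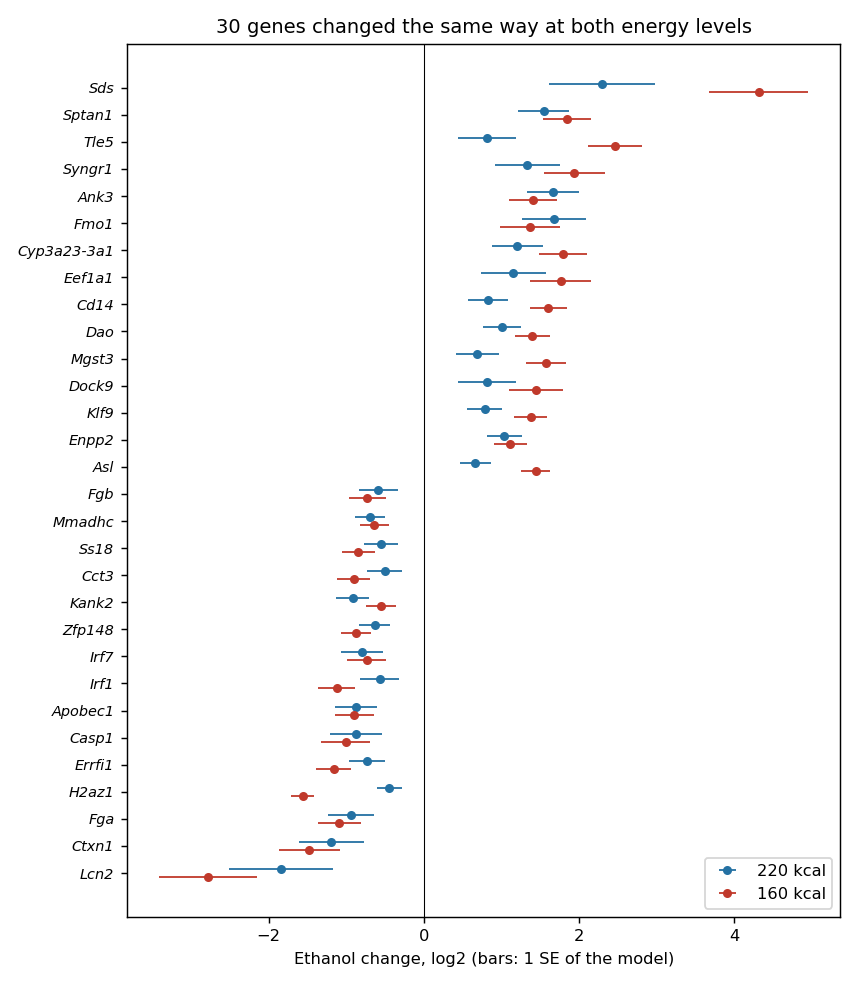
Ethanol change (log2, x axis) at 220 kcal (blue) and 160 kcal (red) of 30 genes changed at both levels, with groups that did not overlap at either; bars are 1 standard error of the model. All 30 have the same sign at both levels, and Sds reaches 2.30 and 4.32.

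Sds, Asl, Gpt, Haao, Arg1 and 4 other genes of amino acid breakdown and the urea cycle rose with ethanol in the average. They were the 9 called of 32 measured genes in this list, where 4.44% of all probe sets were called higher. Of the 9, 8 had the same sign at both levels and 2 (Sds and Asl) passed at both (1.26% of all as higher). The list's median average change was 0.17, against -0.03 over all tested probe sets, with 21 of 32 genes positive at 220 kcal and 26 at 160 kcal. Sds, serine dehydratase, which turns serine into pyruvate and ammonia, had the largest average change of the 95 genes. Sds signals were 35.0, 21.7 and 113.1 in TEN-220 against 193.0, 343.5 and 154.4 in EtOH-220, and 166.1, 147.5 and 175.3 in TEN-160 against 786.5, 4931.5, 6163 and 4607 in EtOH-160. The ethanol arrays were higher than their controls at both levels without overlap, and EtOH-160 replicate 1 lay well below the other 3 of its group. The average change was 3.31 (SE 0.47, adjusted p = 0.0021), 2.30 at 220 kcal and 4.32 at 160 kcal. The geometric mean of TEN-220 (44.1) lay below background, although its replicate 3 (113.1) lay above it. With that mean set to background, the ratio of the group means at 220 kcal was 4.66. A second probe set of Sds gave 1.22 with an adjusted p of 0.096.

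Asl, argininosuccinate lyase, makes arginine in the urea cycle. Asl signals were 777.3, 892.7 and 890.4 in TEN-220 against 1163, 1358 and 1547 in EtOH-220, and 1103, 1401 and 1178 in TEN-160 against 2480.0, 3578, 4428 and 3100.3 in EtOH-160. All 7 ethanol arrays exceeded the controls of their level, with a change of 1.05 (SE 0.14, adjusted p = 0.00179), 0.66 at 220 kcal and 1.44 at 160 kcal, and a second probe set gave 1.03. Cps1, carbamoyl-phosphate synthetase, commits ammonia to the cycle. Cps1 signals were 7999, 7306 and 5227 in TEN-220 against 10854, 8149 and 9365 in EtOH-220, and 5984, 5828 and 5676 in TEN-160 against 9704, 7155, 12347 and 10079 in EtOH-160. It rose by 0.60 (SE 0.14, adjusted p = 0.0173), 0.48 at 220 kcal and 0.73 at 160 kcal, without overlap at either. Its other, brighter probe set was not called (0.10), with 0.26 at 220 kcal and -0.06 at 160 kcal. Arg1, arginase, which releases urea, rose by 0.54 (SE 0.11, adjusted p = 0.0096), but its arrays overlapped at 220 kcal, where the change was 0.28 against 0.79 at 160 kcal. Gpt, alanine aminotransferase, rose by 1.33 (SE 0.20, adjusted p = 0.0023), 0.53 at 220 kcal and 2.13 at 160 kcal, and Haao, an enzyme of tryptophan breakdown, by 0.76 (SE 0.09, adjusted p = 0.00113), 0.27 at 220 kcal and 1.25 at 160 kcal. For Gpt and Haao the 2 changes differed (adjusted p of the difference 0.0283 and 0.00834), and TEN-160 lay wholly below all other arrays. A second, dimmer probe set of Haao is among the 120, with 0.32 at 220 kcal and 0.56 at 160 kcal, no overlap at either and an adjusted p of the difference of 0.461.

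Dao and Agxt rose at both levels as well. Dao, D-amino acid oxidase, gave a change of 1.20 (SE 0.17, adjusted p = 0.0021), 1.00 at 220 kcal and 1.40 at 160 kcal. Dao signals were 319.9, 256.0 and 219.1 in TEN-220 against 406.9, 602.8 and 590.9 in EtOH-220, and 329.8, 362.1 and 240.2 in TEN-160 against 596.3, 814.0, 1014 and 855.8 in EtOH-160. The groups were separate at both levels. Agxt, which detoxifies glyoxylate with alanine, rose by 0.68 (SE 0.18, adjusted p = 0.0326), with nearly equal changes of 0.70 and 0.66. EtOH-160 replicate 2 (379.8) lay among the controls of its level. The call of Agxt was lost without any 1 of 8 arrays, TEN-220 replicate 2, EtOH-220 replicates 2 or 3, TEN-160 replicates 1 or 3 or EtOH-160 replicates 1, 3 or 4 (adjusted p of 0.0535 to 0.0807). Its other 5 probe sets gave -0.17 to 0.51.

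Gluconeogenesis and the fasting response held 6 called genes of 21, all higher (4.44% of all probe sets), with a median of 0.35. Of the 6, 4 had the same sign at both levels. Sds and Aqp9 were the 2 at both levels (1.26% of all as higher). Aqp9, the channel by which hepatocytes take up glycerol, rose by 0.78 (SE 0.14, adjusted p = 0.00671), 0.49 at 220 kcal and 1.06 at 160 kcal. Aqp9 signals were 2858, 3461 and 2281 in TEN-220 against 3582, 3810.0 and 4620.0 in EtOH-220, and 2633, 3125 and 1741 in TEN-160 against 5117, 4789, 5322 and 5017 in EtOH-160. No array of one diet reached those of the other within a level. The periportal markers share Sds, Asl and Arg1 with these lists. Of these 14 markers 6 were called, all higher (4.44% of all), 5 with the same sign at both levels, and the median was 0.34. Their summed signal was 81532 to 90773 in TEN-220 against 88665 to 101014 in EtOH-220, which overlap, and 80407 to 90497 in TEN-160 against 106643 to 119044 in EtOH-160, which do not. In bulk RNA, fewer cells of a type and less RNA per cell cannot be told apart. Of 12 pericentral markers 3 were called, all higher (4.44% of all), 2 with the same sign at both levels, with a median of 0.11. The summed signals of the pericentral markers overlapped at both levels. Glul, glutamine synthetase, which binds ammonia in the cells around the central vein, fell instead on its probe set with the smallest p. Glul signals were 3392, 2813 and 2945 in TEN-220 against 2267, 1748 and 2033 in EtOH-220, and 3611, 2669 and 3135 in TEN-160 against 2450.5, 1419.8, 2392.5 and 1919 in EtOH-160. All ethanol arrays lay below the controls of their level, with a change of -0.62 (SE 0.14, adjusted p = 0.0166), and the levels were alike (-0.60 and -0.64). Its other 3 probe sets gave -0.49 to -0.11 and were not called. The one at -0.11 had opposite signs at the 2 levels, -0.39 at 220 kcal and 0.16 at 160 kcal.

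**Figure D3:**
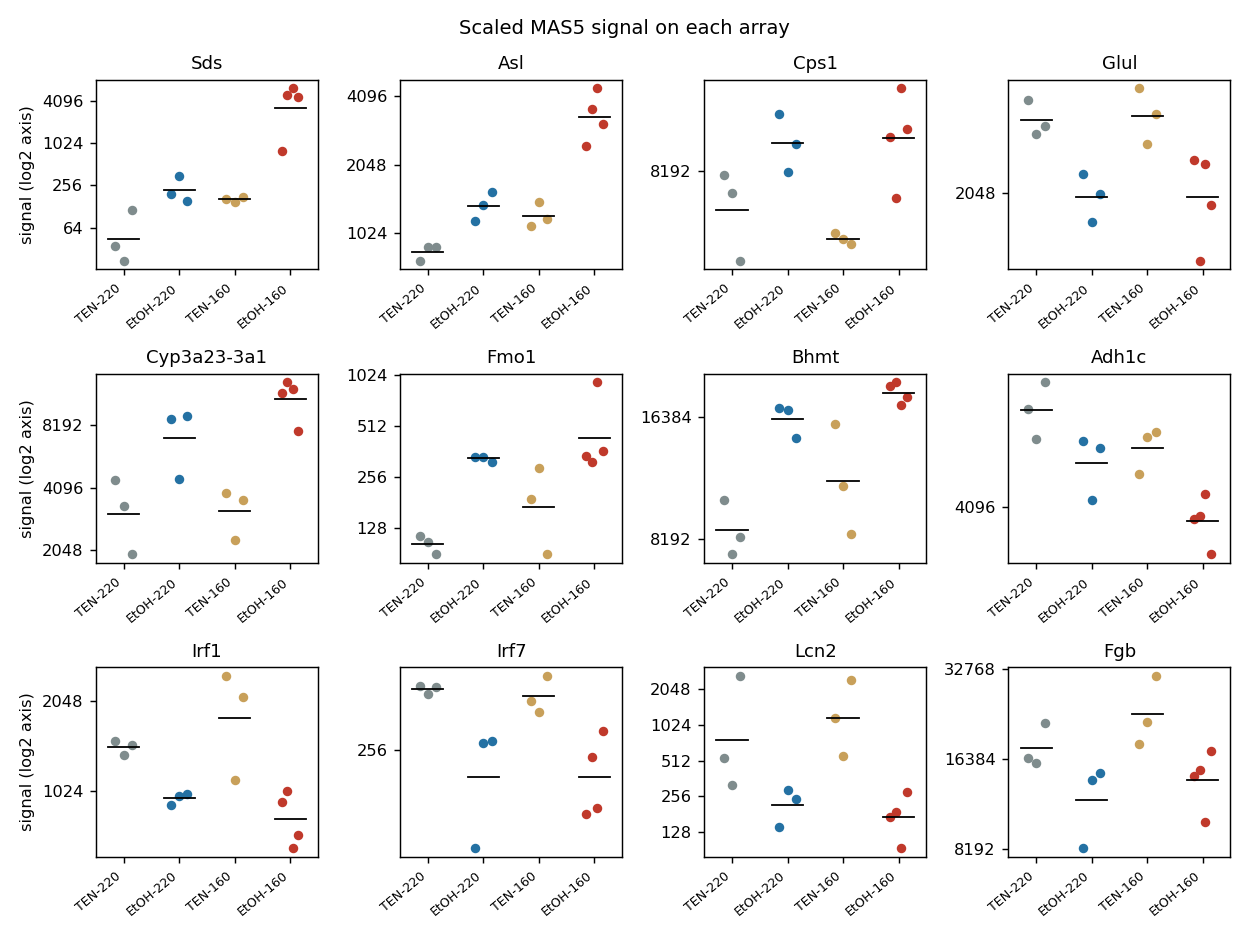
Scaled signal (log2 y axis) of 12 genes on each array, by group; each point is 1 array and the bar the geometric mean of the group (n = 3, 3, 3 and 4). In all 12 panels the ethanol arrays are on the same side of the controls at both energy levels without overlap.

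In the methionine cycle, transsulfuration and one-carbon metabolism, 7 of 21 genes were called, all higher (4.44% of all probe sets). Of the 7, 6 had the same sign at both levels, and the median was 0.20. Bhmt, which remakes methionine from homocysteine with betaine as the methyl donor, was the 1 member that passed at both levels (1.26% of all as higher). Bhmt signals were 10246, 7511.5 and 8281 in TEN-220 against 17255, 17115 and 14516 in EtOH-220, and 15733, 11112 and 8423 in TEN-160 against 19560.4, 19999, 17542 and 18362 in EtOH-160. The control and ethanol arrays did not overlap, and the change of 0.82 (SE 0.13, adjusted p = 0.00372) was of like size at both levels (0.92 and 0.73; adjusted p of the difference 0.694). The other members leaned to 1 level. Cth, cystathionine gamma-lyase, the last step to cysteine, rose by 0.67 (SE 0.16, adjusted p = 0.0202), with 1.13 at 220 kcal and 0.21 at 160 kcal, where its arrays overlapped, and its other probe set gave 1.04 and -0.30. Cth signals were 3726, 2759.5 and 2673.5 in TEN-220 against 5217, 7900.3 and 7057 in EtOH-220, and 5468, 5924 and 4177 in TEN-160 against 7672, 4917, 7171 and 4595 in EtOH-160. Gnmt, glycine N-methyltransferase, which consumes S-adenosylmethionine, and Ahcy, which splits S-adenosylhomocysteine, leaned the other way. Gnmt gave 0.12 and 1.56 at 220 and 160 kcal, a difference that passed its own test (adjusted p = 0.0201), with averages of 0.25 and 0.73 on its other probe sets, and Ahcy gave 0.32 and 1.14 (adjusted p of the difference 0.108). For both, TEN-160 lay wholly below all other arrays. Cbs, the first step of transsulfuration, and Mat1a, which makes S-adenosylmethionine, were not called, with changes of 0.18 (SE 0.17, adjusted p = 0.534) and 0.20 (SE 0.24, adjusted p = 0.645). Mmadhc, which handles the vitamin B12 that methionine synthase uses, fell by 0.66 (SE 0.13, adjusted p = 0.00982), -0.69 at 220 kcal and -0.64 at 160 kcal. Mmadhc signals were 595.4, 534.1 and 705.5 in TEN-220 against 432.4, 366.9 and 337.2 in EtOH-220, and 962.6, 725.5 and 974.9 in TEN-160 against 697.0, 463.1, 568.7 and 558.0 in EtOH-160. The 3 TEN-160 arrays were the highest of all 13.

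Among the enzymes that oxidise ethanol and acetaldehyde, Aldh3a2 and Aldh1a1 were called in their list. They were 2 of 12 measured genes, both higher (4.44% of all probe sets), 1 of them at both levels (1.26% of all), and the list's median was 0.00443. Adh1c, the class I alcohol dehydrogenase on this array, which carries most hepatic ethanol oxidation, fell by a small amount on the probe set with the smallest p. Adh1c signals were 6747, 5805 and 7745 in TEN-220 against 5725.5, 4254 and 5529.8 in EtOH-220, and 4849, 5859 and 5998 in TEN-160 against 3864, 3924, 4374 and 3222 in EtOH-160. The ethanol arrays lay below their controls at both levels, and the change was -0.46 (SE 0.12, adjusted p = 0.0268), -0.39 at 220 kcal and -0.54 at 160 kcal. The call of Adh1c was lost without any 1 of 4 arrays, TEN-220 replicates 1 or 3, EtOH-220 replicate 2 or TEN-160 replicate 3 (adjusted p of 0.051 to 0.063). The brighter of its probe sets, which enters the list, gave -0.20 and was not called. The symbol Adh1 was not among the gene names of the probe sets.

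Aldh3a2, fatty aldehyde dehydrogenase, was the list's member at both levels, with 0.83 (SE 0.19, adjusted p = 0.0174), 1.07 at 220 kcal and 0.59 at 160 kcal. Its arrays overlapped at 160 kcal through EtOH-160 replicate 2 (1379.9), and its other probe sets gave -0.14 and 0.12. Aldh1a1, a cytosolic aldehyde dehydrogenase, was called at 0.64 (SE 0.18, adjusted p = 0.0431), with 0.12 at 220 kcal and 1.15 at 160 kcal. The call of Aldh1a1 was lost without any 1 of 11 arrays, TEN-220 replicates 1, 2 or 3, EtOH-220 replicates 1, 2 or 3, TEN-160 replicates 1, 2 or 3 or EtOH-160 replicates 2 or 3 (adjusted p of 0.0523 to 0.102). Cyp2e1, the ethanol-inducible P450, was not called: its change was -0.17 (SE 0.12, adjusted p = 0.401), its signals ran from 17240 to 21697 in TEN-220 and from 13104 to 18116 in EtOH-220, from 14731 to 19314 in TEN-160 and from 13068 to 18462 in EtOH-160, and the other 2 probe sets gave 0.10 and 0.18. Cat, catalase, was not called either (-0.32 (SE 0.29, adjusted p = 0.537)). Cat signals were 2909, 3326 and 3148 in TEN-220 against 5643.5, 3911 and 2869 in EtOH-220, and 10911, 10937 and 2533 in TEN-160 against 3493, 3507, 3538 and 3068 in EtOH-160. TEN-160 replicates 1 and 2 stood far above every other array, its other probe set gave 0.17, and without TEN-160 replicate 3 Cat passed as lower (adjusted p = 0.0189). Mitochondrial Aldh2 had changes of opposite sign, -0.54 at 220 kcal and 0.49 at 160 kcal, and so had Adh4, 0.75 at 220 kcal and -0.50 at 160 kcal; neither was called in the average, and both differences between levels passed (adjusted p = 0.044 and 0.0337).

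Cyp3a23-3a1, Cyp2b2, Cyp2a1 and Cyp2d4, enzymes of drug and steroid metabolism, rose with ethanol. Of 26 genes of the P450 families CYP1 to CYP3 and their partners, 5 were called higher (4.44% of all probe sets) and 1 lower (4.96%). The 5 higher had the same sign at both levels and the 1 lower did not. As higher, 3 passed at both levels (1.26% of all). The median was 0.13, with 20 of 26 positive at 220 kcal and 16 at 160 kcal. Cyp3a23-3a1, an inducible enzyme of the CYP3A family, had 3 of its 4 probe sets among the 120. Cyp3a23-3a1 signals were 4439, 3348 and 1960.3 in TEN-220 against 8717, 4514 and 9062 in EtOH-220, and 3855, 2295 and 3569.6 in TEN-160 against 11698, 13131.5, 12214.5 and 7663 in EtOH-160. Ethanol arrays were above their controls throughout, with a change of 1.50 (SE 0.23, adjusted p = 0.0023), 1.20 at 220 kcal and 1.79 at 160 kcal, and its other probe sets gave 0.64 to 1.19. Members of this family are near-identical in sequence, so the probe set may also read their transcripts. Cyp2b2, inducible by phenobarbital, rose by 1.67 (SE 0.33, adjusted p = 0.00976), 1.02 at 220 kcal and 2.33 at 160 kcal, and by 1.91 on its other probe set, but the arrays overlapped at 220 kcal. Cyp2b2 signals were 1237, 2307.5 and 958.8 in TEN-220 against 3913, 2236 and 2585 in EtOH-220, and 1468, 833.3 and 449.5 in TEN-160 against 7949, 4596, 4052 and 1932 in EtOH-160. Cyp2a1, a steroid hydroxylase, rose by 0.63 (SE 0.13, adjusted p = 0.0096), 0.45 at 220 kcal and 0.81 at 160 kcal, without overlap. Cyp2d4 had nearly the same change at both levels (0.57 and 0.57; average 0.57 (SE 0.16, adjusted p = 0.0366)). The call of Cyp2d4 was lost without any 1 of 10 arrays, TEN-220 replicates 1 or 3, EtOH-220 replicates 1, 2 or 3, TEN-160 replicates 1 or 3 or EtOH-160 replicates 1, 2 or 3 (adjusted p of 0.0523 to 0.0914). Fdx1, adrenodoxin, which passes electrons to mitochondrial P450s, was as even on 1 probe set, at 0.55 (SE 0.14, adjusted p = 0.0293). Its other probe set was brighter (mean of 2524 in TEN-220 against 284) and not called (-0.24). There the change was 0.22 at 220 kcal and -0.71 at 160 kcal, where all ethanol arrays lay below the controls. The call of Fdx1 was lost without any 1 of 6 arrays, TEN-220 replicates 1, 2 or 3, EtOH-220 replicate 3 or TEN-160 replicates 1 or 2 (adjusted p of 0.0503 to 0.0683).

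Fmo1, a flavin-containing monooxygenase that oxidises nitrogen and sulfur in xenobiotics, rose at both levels. Fmo1 signals were 115.4, 106.3 and 89.3 in TEN-220 against 336.6, 337.8 and 314.5 in EtOH-220, and 188.9, 289.0 and 89.6 in TEN-160 against 341.5, 314.6, 930.7 and 364.2 in EtOH-160. The EtOH-220 arrays were tightly grouped above their controls, and EtOH-160 replicate 3 was far above the rest of its group. The change was 1.52 (SE 0.28, adjusted p = 0.00725), 1.68 at 220 kcal and 1.36 at 160 kcal. Mgst3, a microsomal glutathione transferase, rose by 1.13 (SE 0.19, adjusted p = 0.00421), 0.69 at 220 kcal and 1.57 at 160 kcal. Mgst3 signals were 1522, 2169 and 1588 in TEN-220 against 2783, 2778 and 2854 in EtOH-220, and 1173, 1337.5 and 584.4 in TEN-160 against 2212.5, 3418, 3614 and 2544 in EtOH-160. TEN-160 held the 3 lowest arrays. In the list of conjugation enzymes, 3 of 29 genes were called higher (4.44% of all probe sets) and 1 lower (4.96%), with a median of 0.14.

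In lipid metabolism Gpam and Cyp4a1 rose at both levels, while Fasn had opposite signs at the 2 levels. Lipogenesis, with each gene's brightest probe set, had 3 of 14 genes called higher (4.44% of all probe sets) and 1 lower (4.96%). Of these 4, 1 of the higher and the 1 lower had the same sign at both levels. None of the 4 passed at both levels, and the median changes were -0.04 at 220 kcal and 0.46 at 160 kcal. Fasn, fatty acid synthase, was called in the average at 0.91 (SE 0.20, adjusted p = 0.0158), with -0.30 at 220 kcal and 2.11 at 160 kcal (adjusted p of the difference 0.00482), and its other probe set gave -0.91 and 2.58. Fasn signals were 6844, 3615 and 5875 in TEN-220 against 3127, 3613 and 6945 in EtOH-220, and 959.4, 1423 and 974.9 in TEN-160 against 4307, 5458, 3995 and 5482 in EtOH-160. The TEN-160 arrays were the 3 lowest. Scd, stearoyl-CoA desaturase, had the same shape (-0.50 and 1.29; adjusted p of the difference 0.00783) and was not called; its other probe set gave 0.10 and -0.23. Srebf1, the transcription factor that drives lipogenesis, was not called (0.66 (SE 0.21, adjusted p = 0.0676)) but passed as higher without EtOH-220 replicate 1 (adjusted p = 0.0169) and without EtOH-160 replicate 1 (adjusted p = 0.0459). Gpam, which starts triglyceride synthesis from glycerol phosphate, rose at both levels. Gpam signals were 328.9, 225.3 and 376.2 in TEN-220 against 601.9, 413.1 and 699.1 in EtOH-220, and 169.6, 243.4 and 117.8 in TEN-160 against 497.5, 274.0, 298.2 and 463.5 in EtOH-160. The groups were separate within each level, the change was 1.00 (SE 0.22, adjusted p = 0.0146), 0.88 at 220 kcal and 1.13 at 160 kcal, and the other 4 probe sets gave 0.75 to 1.36. The brightest of these gave 1.35 and 0.16. Acly, which supplies acetyl-CoA, passed at both levels on the dimmest of its 3 probe sets (1.00 (SE 0.23, adjusted p = 0.0174)), 1.20 at 220 kcal and 0.80 at 160 kcal. The other 2 were not called and had opposite signs at the 2 levels, -0.67 and -0.49 at 220 kcal against 0.33 and 1.25 at 160 kcal.

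Of 40 genes of fatty acid oxidation, ketogenesis and PPAR-alpha targets, 6 were called, all higher (4.44% of all probe sets). Of them, 1 passed at both levels (1.26% of all as higher), and the median was 0.20. Cyp4a1, a fatty acid omega-hydroxylase and a classic target of PPAR-alpha, rose by 0.86 (SE 0.13, adjusted p = 0.00255), 0.43 at 220 kcal and 1.29 at 160 kcal. Cyp4a1 signals were 1215.5, 1441 and 1343 in TEN-220 against 1577, 1799 and 2022 in EtOH-220, and 972.5, 1620.3 and 1063 in TEN-160 against 2591, 3048, 2708 and 3339.6 in EtOH-160. The arrays did not overlap, and the other probe sets gave 0.66 and 0.67. Cpt1a, which admits fatty acids to mitochondria, was not called (-0.56 (SE 0.22, adjusted p = 0.127)); the change was -1.23 at 160 kcal, where EtOH-160 replicate 3 (2316) stood with the controls, and without that array Cpt1a passed as lower in the average (adjusted p = 0.00969). Enpp2, autotaxin, a secreted enzyme that makes lysophosphatidic acid, rose by nearly the same amount at both levels, 1.03 and 1.11. Enpp2 signals were 191.3, 280.2 and 168.5 in TEN-220 against 395.1, 396.4 and 495.4 in EtOH-220, and 169.1, 190.4 and 179.6 in TEN-160 against 295.4, 396.7, 487.1 and 398.4 in EtOH-160. Its average change was 1.07 (SE 0.15, adjusted p = 0.0021), and that of its other probe set 0.72, with an adjusted p of 0.0532.

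Apobec1, the enzyme that edits apolipoprotein B mRNA, and Apoa2, an apolipoprotein of HDL, were the 2 called genes of the 14 in the apolipoprotein list. Both were called lower (4.96% of all probe sets) and fell at both levels (1.03%), and the list's median was -0.08. Apobec1 signals were 444.6, 492.7 and 422.1 in TEN-220 against 208.6, 279.2 and 257.2 in EtOH-220, and 484.9, 596.1 and 749.7 in TEN-160 against 254.1, 477.9, 393.6 and 227.2 in EtOH-160. Ethanol arrays were below their controls, although EtOH-160 replicate 2 came close, and the change was -0.89 (SE 0.18, adjusted p = 0.011), -0.88 at 220 kcal and -0.90 at 160 kcal. Apoa2 fell by 0.33 (SE 0.09, adjusted p = 0.0333), again evenly (-0.34 and -0.33). The call of Apoa2 was lost without any 1 of 7 arrays, TEN-220 replicates 1, 2 or 3, EtOH-220 replicate 2, TEN-160 replicates 2 or 3 or EtOH-160 replicate 3 (adjusted p of 0.0519 to 0.084). Apob, on its probe set with the smallest p, was not called (0.88 (SE 0.28, adjusted p = 0.063)): it was 2.18 at 220 kcal and -0.41 at 160 kcal, a difference with an adjusted p of 0.0159. Without TEN-220 replicate 3 or without EtOH-160 replicate 2 it passed as higher (adjusted p of 0.0357 to 0.0368). Its other probe sets gave -0.50 to 0.30.

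In bile acid synthesis and transport, 1 of 18 genes was called higher (4.44% of all probe sets) and 1 lower (4.96%), with a median of -0.09. The lower 1 was Baat, which conjugates bile acids to glycine or taurine. Baat signals were 3632, 3689.6 and 4294 in TEN-220 against 3141, 2809 and 3009 in EtOH-220, and 5137, 4596 and 6021 in TEN-160 against 2542, 3359, 2867 and 2908 in EtOH-160. Ethanol arrays were lower at both levels, by 0.61 (SE 0.10, adjusted p = 0.00429), -0.37 at 220 kcal and -0.85 at 160 kcal, and TEN-160 held the 3 highest arrays. Cyp7a1, the rate-limiting enzyme of bile acid synthesis, was not called (0.56 (SE 0.32, adjusted p = 0.296)), with 1.13 at 220 kcal and -0.02 at 160 kcal.

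Irf1, Irf7, B2m and Psmb9, genes of the interferon response and antigen presentation, fell with ethanol. They were the 4 called of 14 measured members (4.96% of all probe sets were called lower), and the same 4 passed at both levels (1.03% of all as lower); the median was -0.24, with 2 of 14 positive at 220 kcal and 5 at 160 kcal. Irf1 and Irf7 are transcription factors induced by interferons, B2m is the light chain of MHC class I, and Psmb9 is a subunit of the immunoproteasome. The 250 bases before the RefSeq start (rat build GRCr8, the listed strand, 5' to 3') are shown for the 3 of these that held an interferon motif, since they are known targets of the pathway and moved together. Capitals mark the match: the core of the interferon-stimulated response element, GAAANNGAA, or the gamma-activated site, TTCNNNGAA, each searched on both strands.
B2m, chr3:129549080-129549329, plus strand: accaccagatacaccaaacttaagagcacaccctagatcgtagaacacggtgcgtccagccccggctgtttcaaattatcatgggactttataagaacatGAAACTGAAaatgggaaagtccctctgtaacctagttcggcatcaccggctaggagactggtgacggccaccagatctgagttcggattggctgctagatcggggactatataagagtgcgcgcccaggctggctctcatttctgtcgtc
Irf1, chr10:38417685-38417934, plus strand: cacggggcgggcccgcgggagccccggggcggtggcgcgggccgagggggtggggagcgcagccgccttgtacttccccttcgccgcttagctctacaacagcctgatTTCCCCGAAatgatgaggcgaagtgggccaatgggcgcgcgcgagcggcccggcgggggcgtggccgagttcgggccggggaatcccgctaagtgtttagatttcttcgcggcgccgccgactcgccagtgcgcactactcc
Irf7, chr1:205800024-205800273, minus strand: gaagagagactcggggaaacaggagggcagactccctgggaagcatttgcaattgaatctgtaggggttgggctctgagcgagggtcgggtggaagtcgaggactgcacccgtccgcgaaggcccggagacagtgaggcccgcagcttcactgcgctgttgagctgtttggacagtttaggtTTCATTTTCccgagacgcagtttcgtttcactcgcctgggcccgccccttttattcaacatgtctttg
The B2m match began 150 bases before the start, that of Irf1 142 and that of Irf7 68, where the reverse complement of the first motif is read. Psmb9 had neither motif in this window. The response element was in 8.12% and the gamma-activated site in 7.67% of 33469 rat promoters of the same length. Among the 13 measured list members with a promoter in the table, 7 held the first and 3 the second, whether they changed or not. A match of letters is a description and shows no binding.

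Irf1 signals were 1498, 1349 and 1452 in TEN-220 against 916.5, 983.6 and 999.9 in EtOH-220, and 2476, 1111 and 2104 in TEN-160 against 941.0, 1020.3, 658.9 and 730.2 in EtOH-160. Within each level all ethanol arrays of Irf1 lay below the controls, TEN-160 replicate 2 being the nearest, and the change was -0.85 (SE 0.17, adjusted p = 0.011), -0.57 at 220 kcal and -1.12 at 160 kcal. Its dimmer probe set gave -0.13, with -0.72 at 220 kcal and 0.46 at 160 kcal. Irf7 signals were 381.5, 363.6 and 379.2 in TEN-220 against 138.2, 268.3 and 271.7 in EtOH-220, and 348.1, 325.0 and 407.5 in TEN-160 against 171.2, 245.7, 178.0 and 288.1 in EtOH-160. TEN-220 and TEN-160 were alike for Irf7, and both ethanol groups were lower; the change was -0.76 (SE 0.18, adjusted p = 0.0218), -0.79 at 220 kcal and -0.73 at 160 kcal, with -0.28 on its other probe set, not called. B2m signals were 9760.3, 8501.5 and 9834 in TEN-220 against 7944.5, 7144 and 7789 in EtOH-220, and 10320.5, 10105 and 12065.5 in TEN-160 against 7652, 8589.5, 8280.5 and 8120.2 in EtOH-160. B2m, bright on all arrays, fell by 0.35 (SE 0.09, adjusted p = 0.0245), -0.29 at 220 kcal and -0.40 at 160 kcal, without overlap at either. TEN-160 was its highest group, above all other arrays. The call of B2m was lost without any 1 of 3 arrays, TEN-220 replicates 1 or 3 or EtOH-220 replicate 2 (adjusted p of 0.0528 to 0.0618). Psmb9 fell by 0.51 (SE 0.12, adjusted p = 0.0186), -0.41 at 220 kcal and -0.62 at 160 kcal; its arrays overlapped at 220 kcal, where EtOH-220 replicate 2 (947.0) exceeded TEN-220 replicate 3 (871.7). The call of Psmb9 was lost without TEN-220 replicate 1 (adjusted p = 0.0521). The other probe set of Psmb9 was not called (-0.29, adjusted p = 0.112), with -0.0052 at 220 kcal and -0.57 at 160 kcal. Psme2, a subunit of the proteasome activator that interferon gamma induces, is in the proteasome list. In that list 2 of 25 genes were called higher (4.44% of all probe sets) and 3 lower (4.96%). Psme2 signals were 724.3, 691.4 and 711.5 in TEN-220 against 542.9, 640.0 and 527.0 in EtOH-220, and 955.2, 896.6 and 1089.8 in TEN-160 against 586.2, 664.1, 570.9 and 578.4 in EtOH-160. Psme2 fell by 0.51 (SE 0.10, adjusted p = 0.0096), -0.32 at 220 kcal and -0.71 at 160 kcal, without overlap, and TEN-160 held its 3 highest arrays. Casp1, the inflammasome caspase that matures interleukin 1 beta, fell by 0.94 (SE 0.23, adjusted p = 0.0253), -0.87 at 220 kcal and -1.004 at 160 kcal, with -0.02 and -0.68 on its other probe sets. The call of Casp1 was lost without any 1 of 4 arrays, TEN-220 replicates 1 or 2, EtOH-220 replicate 3 or TEN-160 replicate 1 (adjusted p of 0.0513 to 0.0595).

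Lcn2, A2m, the fibrinogen chains and 2 other genes of the acute phase fell with ethanol, and Cd14 rose. Of 24 measured genes 7 were called lower (4.96% of all probe sets) and 1 higher, 3 and 1 of them at both levels, and the median was -0.23. With quantile normalization the median was -0.12 (-0.03 at 160 kcal), with 5 called lower and 2 of them at both levels. Lcn2, lipocalin 2, an iron-scavenging protein that inflammation induces strongly, had the largest fall of the 45 genes lower at both levels. Lcn2 signals were 535.2, 318.7 and 2655 in TEN-220 against 140.7, 290.7 and 240.8 in EtOH-220, and 1161.5, 557.6 and 2451 in TEN-160 against 170.2, 190.4, 93.4 and 275.7 in EtOH-160. The 2 control groups spread widely, with replicate 3 the highest of each, and all ethanol arrays lay below all controls of both levels. The change was -2.31 (SE 0.46, adjusted p = 0.0097), -1.84 at 220 kcal and -2.78 at 160 kcal. Fga and Fgb, the alpha and beta chains of fibrinogen, fell by 1.01 (SE 0.21, adjusted p = 0.0101) and 0.66 (SE 0.18, adjusted p = 0.033). Fga signals were 3609, 4391 and 6282 in TEN-220 against 3217, 2262 and 1934 in EtOH-220, and 4612, 2865 and 7599 in TEN-160 against 2129, 2289, 1991 and 2354 in EtOH-160. Fgb signals were 16601, 15961 and 21700.2 in TEN-220 against 8264, 13941 and 14797 in EtOH-220, and 18419, 21828.5 and 31152 in TEN-160 against 14387, 15075, 10140.0 and 17473 in EtOH-160. The changes were -0.94 at 220 kcal and -1.09 at 160 kcal for Fga and -0.58 at 220 kcal and -0.73 at 160 kcal for Fgb. For both chains the ethanol arrays were below the controls of their level on these probe sets. The other 2 Fga probe sets were brighter (means of 18456 and 17281 in TEN-220 against 4634) and called lower, at -0.58 and -0.44. They gave -0.33 and -0.08 at 220 kcal and -0.84 and -0.79 at 160 kcal, with overlap at 220 kcal. The brighter probe set of Fgg, the gamma chain, gave -0.08 at 220 kcal and -0.66 at 160 kcal. The call of Fgb was lost without any 1 of 5 arrays, TEN-220 replicates 1 or 3, EtOH-220 replicate 1, TEN-160 replicate 3 or EtOH-160 replicate 3 (adjusted p of 0.0553 to 0.0769). A2m, alpha-2-macroglobulin, a protease inhibitor of the rat acute phase, had equal changes (-1.27 and -1.30) with wide spread. A2m signals were 711.5, 1224 and 3216 in TEN-220 against 416.9, 514.5 and 929.6 in EtOH-220, and 5468, 1668 and 2126 in TEN-160 against 1222, 771.8, 1225 and 1222 in EtOH-160. TEN-220 and EtOH-220 overlapped. The call of A2m was lost without any 1 of 8 arrays, TEN-220 replicates 2 or 3, EtOH-220 replicates 1 or 2, TEN-160 replicate 1 or EtOH-160 replicates 2, 3 or 4 (adjusted p of 0.0515 to 0.0755). Its other 3 probe sets gave -0.94 to 0.05 and were not called.

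The acute phase gene that rose was Cd14, the co-receptor for bacterial lipopolysaccharide. Cd14 signals were 605.5, 457.3 and 312.8 in TEN-220 against 788.7, 636.3 and 969.1 in EtOH-220, and 466.7, 365.7 and 441.5 in TEN-160 against 1304, 1191, 1738 and 1009.9 in EtOH-160. Ethanol arrays were higher throughout, with 1.22 (SE 0.17, adjusted p = 0.0021), 0.83 at 220 kcal and 1.60 at 160 kcal, and its second probe set gave 0.82. Cp, ceruloplasmin, the copper carrier, gave opposite results by probe set. The named one rose by 0.84 (SE 0.15, adjusted p = 0.0067), 0.92 at 220 kcal and 0.76 at 160 kcal, and TEN-160 held its 3 lowest arrays. The others were brighter (means of 15381 and 3116 in TEN-220 against 475) and gave -0.46 and -0.30. The former was called lower (adjusted p = 0.023), with -0.09 at 220 kcal and -0.83 at 160 kcal. Of 24 genes of complement and coagulation 6 were called, all lower (4.96% of all probe sets), with a median of -0.20. Of the 6, 5 had the same sign at both levels and 2 passed at both (1.03% of all as lower). C4bpb, the beta chain of the complement inhibitor C4b-binding protein, fell by 0.65 (SE 0.12, adjusted p = 0.00588), -0.40 at 220 kcal and -0.91 at 160 kcal. C4bpb signals were 4493, 4805 and 6178 in TEN-220 against 3487, 3872 and 4325 in EtOH-220, and 7722, 6901 and 9869.5 in TEN-160 against 3952, 4890.4, 4002 and 4377 in EtOH-160. The groups were separate at both levels, and TEN-160 was highest. C1s, a protease of the classical pathway, fell by 0.57 (SE 0.13, adjusted p = 0.0148), evenly (-0.59 and -0.55), and C9, of the membrane attack complex, by 0.74 (SE 0.16, adjusted p = 0.0146), -0.40 at 220 kcal and -1.08 at 160 kcal, with an overlap at 220 kcal. Ahsg, fetuin A, a protein that falls in inflammation, was not called (-0.23 (SE 0.10, adjusted p = 0.169)).

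Hyou1, Hspa5 and Pdia3, chaperones of the endoplasmic reticulum, fell with ethanol. Of 17 genes of their list 5 were called lower (4.96% of all probe sets) and 1 higher, with a median of -0.34. The same sign at both levels held for 4 and 1 of them, and 2 and 1 passed at both levels. Hyou1, which assists folding under oxygen shortage, fell at both levels. Hyou1 signals were 1909, 2181 and 2086 in TEN-220 against 1059, 1185 and 1177 in EtOH-220, and 713.4, 1096.5 and 1007 in TEN-160 against 746.1, 467.2, 650.8 and 745.2 in EtOH-160. EtOH-160 overlapped TEN-160 only through TEN-160 replicate 1, and the change was -0.69 (SE 0.14, adjusted p = 0.0101), -0.85 at 220 kcal and -0.53 at 160 kcal, while its other probe set gave -0.03. Hspa5 (BiP), the main chaperone of the compartment, differed by probe set. The brightest, used in the list, fell by 0.48 (-0.34 and -0.62 at the 2 levels) and is among the 120. The one with the smallest p gave -0.12 at 220 kcal and -1.81 at 160 kcal (adjusted p of the difference 0.0172). Pdia3, a disulfide isomerase, fell by 0.84 (SE 0.17, adjusted p = 0.00976), -0.52 at 220 kcal and -1.17 at 160 kcal, and by 0.38 on its other probe set. Hsp90b1 gave opposite results by probe set. It rose by 0.59 (SE 0.15, adjusted p = 0.0268) on the probe set with the smallest p. The others gave -0.65, called lower (adjusted p = 0.0326), and 0.03, not called. The call of Hsp90b1 as higher was lost without any 1 of 4 arrays, TEN-220 replicates 1 or 2, EtOH-220 replicate 3 or TEN-160 replicate 1 (adjusted p of 0.0549 to 0.063). Cct3, a subunit of the cytosolic chaperonin TRiC, fell by 0.70 (SE 0.16, adjusted p = 0.0152), -0.50 at 220 kcal and -0.90 at 160 kcal. It is in the heat shock list, with 2 of 15 genes called higher (4.44% of all) and 1 lower (4.96%). Cct3 signals were 729.9, 736.3 and 623.9 in TEN-220 against 564.6, 412.2 and 505.5 in EtOH-220, and 495.0, 419.6 and 638.9 in TEN-160 against 191.7, 278.7, 307.8 and 336.9 in EtOH-160. No arrays overlapped within a level. Of 37 cytosolic ribosomal proteins, 7 were called lower (4.96% of all) and 3 higher (4.44%), with a median of -0.15. Of the lower, 2 passed at both levels (1.03% of all).

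Sptan1, the alpha chain of spectrin, and Ank3, ankyrin G, which ties spectrin to membrane proteins, both rose. In the list of 25 genes of actin, tubulin and the cytoskeleton limma called 0, with 9 at an unadjusted p under 0.05. Sptan1 signals were 167.6, 84.2 and 58.9 in TEN-220 against 258.6, 275.7 and 289.4 in EtOH-220, and 44.8, 37.7 and 34.2 in TEN-160 against 110.9, 135.3, 178.7 and 138.6 in EtOH-160. Ank3 signals were 47.0, 47.0 and 95.2 in TEN-220 against 218.5, 159.6 and 191.9 in EtOH-220, and 59.5, 40.4 and 60.2 in TEN-160 against 103.2, 171.3, 124.6 and 168.2 in EtOH-160. Every ethanol array exceeded the controls of its level for both genes, with changes of 1.69 (SE 0.23, adjusted p = 0.0021) and 1.53 (SE 0.23, adjusted p = 0.0023). At 220 kcal alone they were 1.54 and 1.66. TEN-160 was below background for Sptan1, so the rise at 160 kcal is at least 2.98-fold. Syngr1, synaptogyrin 1, a vesicle membrane protein, rose by 1.64 (SE 0.29, adjusted p = 0.00551), while its other probe sets gave -0.00199 and 0.31. The geometric means of both control groups lay below background, although TEN-220 replicate 3 (48.0) and TEN-160 replicate 2 (51.3) were just above it. With these means set to background, the rise was 2-fold at 220 kcal and 3.25-fold at 160 kcal. Dock9, an activator of the GTPase CDC42, rose by 1.13 (SE 0.26, adjusted p = 0.0172). Its geometric mean in TEN-160 lay below background, although replicate 3 (57.8) lay above it. With that mean set to background, the rise at 160 kcal was 2.45-fold. Ctxn1, cortexin 1, fell by 1.34 (SE 0.29, adjusted p = 0.0142), with EtOH-220 below background (at least 1.61-fold lower).

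Klf9, a transcription factor that glucocorticoids and thyroid hormone induce, rose on both of its probe sets, by 1.08 (SE 0.16, adjusted p = 0.0021) and by 1.04. Klf9 signals were 347.3, 374.6 and 425.2 in TEN-220 against 726.7, 805.7 and 482.1 in EtOH-220, and 657.6, 620.5 and 596.4 in TEN-160 against 1202, 1641, 2218 and 1574 in EtOH-160. Controls and ethanol arrays were separate within each level, and with either diet the arrays at 160 kcal lay above those at 220 kcal. Tle5, a co-repressor of the Groucho family, rose by 1.64 (SE 0.25, adjusted p = 0.00289), 0.82 at 220 kcal and 2.46 at 160 kcal, but its other 3 probe sets gave 0.08 to 0.88. Eef1a1, the elongation factor that brings aminoacyl-tRNA to the ribosome, rose by 1.46 (SE 0.29, adjusted p = 0.00923), 1.15 at 220 kcal and 1.77 at 160 kcal, on 1 probe set and was called lower on the other, at -0.67 (adjusted p = 0.00393). For Tle5 and Eef1a1, TEN-160 held the 3 lowest arrays.

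H2az1, a histone variant placed at promoters, fell more at 160 kcal than at 220 kcal. H2az1 signals were 548.4, 683.2 and 622.6 in TEN-220 against 454.7, 464.5 and 438.6 in EtOH-220, and 1472, 1360.0 and 1646 in TEN-160 against 484.0, 474.1, 601.0 and 465.5 in EtOH-160. Its change was -1.004 (SE 0.11, adjusted p = 6.15e-04), -0.44 at 220 kcal and -1.56 at 160 kcal, and it was the 1 of the 120 whose changes differed between levels (adjusted p = 0.00878). The 3 TEN-160 arrays stood above all others, and the ethanol groups were close to each other. Errfi1, a feedback inhibitor of the EGF receptor, fell by 0.95 (SE 0.16, adjusted p = 0.00466), -0.73 at 220 kcal and -1.16 at 160 kcal. Errfi1 signals were 163.1, 195.2 and 184.3 in TEN-220 against 89.2, 115.7 and 123.9 in EtOH-220, and 180.7, 190.9 and 180.1 in TEN-160 against 95.3, 63.6, 74.0 and 101.1 in EtOH-160. Controls of both levels were alike and ethanol arrays lower on this probe set. The other probe sets were not called and gave -0.08 and 0.45. They were much brighter, with means of 8145 and 2554 in TEN-220 against 180. Zfp148, a zinc finger factor, Ss18, a subunit of the BAF chromatin remodelling complex, and Kank2, a regulator of actin at adhesions, fell by 0.76 (SE 0.14, adjusted p = 0.00725), 0.70 (SE 0.15, adjusted p = 0.0146) and 0.73 (SE 0.14, adjusted p = 0.00898). For Zfp148 and Ss18 TEN-160 held the 3 highest arrays, for Kank2 TEN-220 did. Ddah1, which degrades the nitric oxide synthase inhibitor dimethylarginine, rose evenly (0.65 and 0.67; average 0.66 (SE 0.18, adjusted p = 0.0326)), with 0.36 on its other probe set, not called. The call of Ddah1 was lost without any 1 of 8 arrays, TEN-220 replicates 1, 2 or 3, EtOH-220 replicates 1 or 3, TEN-160 replicates 1 or 3 or EtOH-160 replicate 4 (adjusted p of 0.0507 to 0.0756).

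Some genes passed in the average on the strength of 1 energy level. Fam111a, a protease that acts at DNA replication forks, fell by 2.32 (SE 0.35, adjusted p = 0.0023). Fam111a signals were 1189, 600.3 and 583.7 in TEN-220 against 173.6, 39.3 and 30.2 in EtOH-220, and 333.8, 233.5 and 360.1 in TEN-160 against 200.9, 160.4, 142.5 and 120.8 in EtOH-160. Its arrays were separate at both levels, but the fall was larger at 220 kcal, -3.66 at 220 kcal and -0.99 at 160 kcal (adjusted p of the difference 0.0318), with EtOH-220 replicates 2 and 3 below background. Hmox1, heme oxygenase, and Inhbe, the liver-made activin beta E, fell at 220 kcal (-1.95 and -1.04) with changes near 0 at 160 kcal (-0.13 and -0.04; adjusted p of the differences 0.0337 and 0.0203). Hmox1 signals were 511.9, 590.8 and 800.3 in TEN-220 against 93.5, 205.0 and 217.2 in EtOH-220, and 429.7, 241.5 and 622.3 in TEN-160 against 387.5, 421.1, 327.1 and 334.8 in EtOH-160. Inhbe signals were 1794, 1870.5 and 1809 in TEN-220 against 931.9, 1000.3 and 752.5 in EtOH-220, and 645.1, 652.6 and 708.2 in TEN-160 against 686.3, 748.4, 660.3 and 518.9 in EtOH-160. Both genes overlapped at 160 kcal, and the other probe set of Hmox1 gave -1.37 and 0.44. Further genes had changes of opposite sign and were not called in the average. Igfbp1, an IGF carrier that fasting induces, was 1.88 at 220 kcal and -1.06 at 160 kcal (adjusted p of the difference 0.0397). Igfbp1 signals were 82.3, 289.3 and 289.1 in TEN-220 against 850.8, 1463 and 275.2 in EtOH-220, and 1470.0, 1382 and 2448 in TEN-160 against 429.1, 817.4, 1133 and 1138 in EtOH-160. The groups overlapped at 220 kcal and were separate at 160 kcal. Cebpb, a transcription factor of the acute phase, was -0.98 and 1.50 (adjusted p of the difference 0.00516), with separate groups at both levels and -0.77 and 0.68 on its other probe set. Afp, the fetal albumin, was -0.41 at 220 kcal; at 160 kcal TEN-160 lay below background, and EtOH-160 was at least 1.94-fold higher. Its other probe set was not called (0.49). Igf1 was not called (-0.61 (SE 0.23, adjusted p = 0.105)) but passed as lower without EtOH-160 replicate 2 (adjusted p = 0.0425), and its other 4 probe sets gave -0.77 to 0.11.

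**Figure D4:**
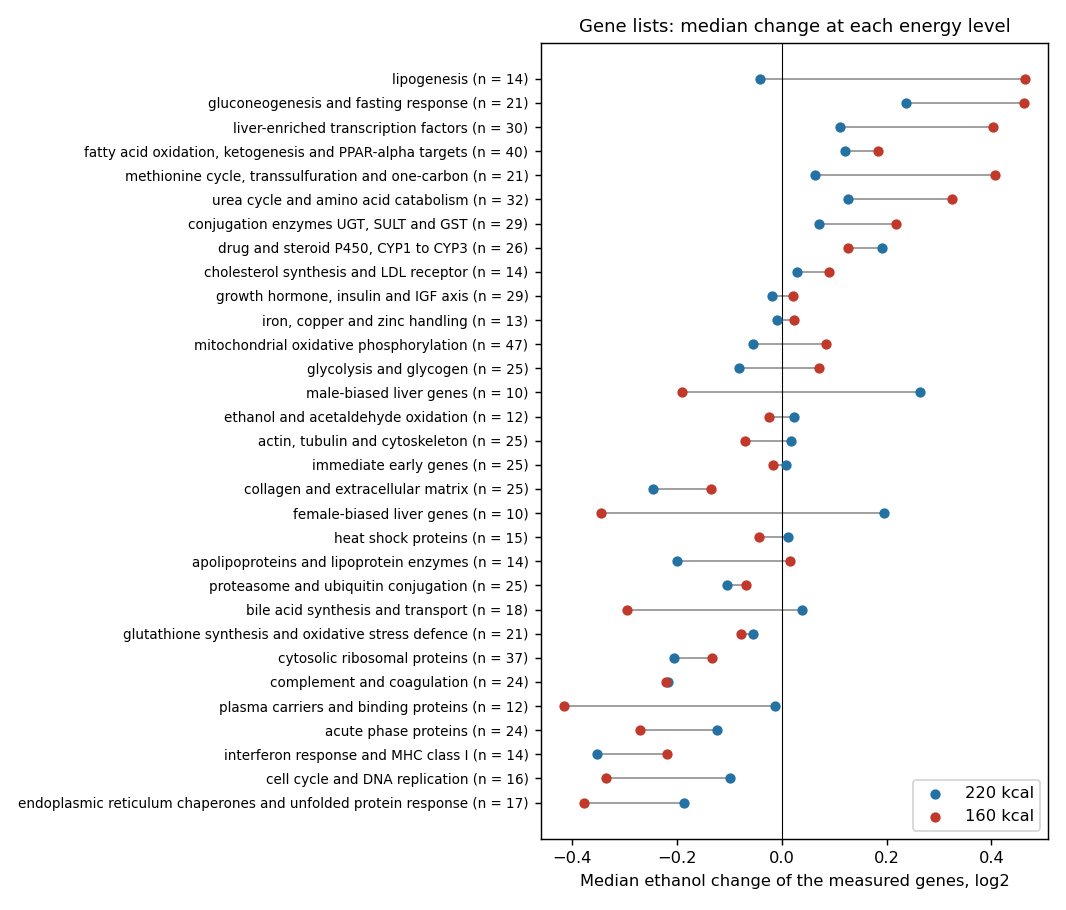
Median ethanol change (log2, x axis) of the measured genes of each list with at least 10 of them, at 220 kcal (blue) and 160 kcal (red). Complement and coagulation has nearly the same median at both levels (-0.22 and -0.22), while lipogenesis is at -0.04 and 0.46.

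The other lists are given by their counts, to be read beside the 4.44% of all probe sets called higher and the 4.96% called lower. Of 47 genes of mitochondrial oxidative phosphorylation 1 was called, higher. Of 30 liver-enriched transcription factors 4 were called, all higher, with a median of 0.27. Of the 4, 2 had the same sign at both levels and 1 passed at both (1.26% of all as higher). Cholesterol synthesis had 1 of 14 called higher, and the fat droplet list 1 higher and 1 lower of 9. Glycolysis and glycogen had 2 of 25 called higher and 1 lower, with the same sign at both levels for 1 and 1. The growth hormone, insulin and IGF axis had 2 of 29 higher and 1 lower, with the same sign for 0 and 1. Glutathione and oxidative stress defence had 1 of 21 called lower, as did 25 immediate early genes, 12 plasma carriers and 13 genes of iron, copper and zinc handling. Of 25 genes of collagen and matrix 3 were called, all lower. Cell cycle and DNA replication had 1 of 16 called higher and 1 lower, and the circadian clock list 1 of 9 higher (Klf9). The female-biased list had 1 of 10 higher and 1 lower, the lower 1 with opposite signs at the 2 levels. The male-biased list had 0 of 10 called by limma (4 at an unadjusted p under 0.05).

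Markers of the labelled tissue were strong and those of other cells mixed. Over all probe sets, 4.44% were called higher and 4.96% lower. Albumin, Alb, gave signals from 30109 to 49514, and of 20 hepatocyte markers 1 was called higher and 3, the fibrinogen chains, lower. Of 17 Kupffer cell markers only Cd14 was called. Clec4f, the defining marker of Kupffer cells, lay between 1659 and 2710 on all arrays, and the summed signal of the 17 was 16906 to 19817 in TEN-220, 14569 to 21430 in EtOH-220, 16278 to 19824 in TEN-160, with 14202 to 16729 in EtOH-160, overlapping at both levels. The 10 neutrophil and lymphocyte markers summed to 1495 to 2014 in TEN-220, 1558 to 1809 in EtOH-220, 1737 to 3431 in TEN-160, with 1321 to 1532 in EtOH-160, so that they overlapped at 220 kcal and were lower with ethanol at 160 kcal, where genes of the interferon and acute phase lists were lower as well; 1 of the 10 was called, lower. The T cell marker Cd3d stayed at 7.3 to 23, below background. The part of these cells in the results was not tested.

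Of 13 stellate cell and fibroblast markers 2 were called higher (4.44% of all probe sets) and 2 lower (4.96%). Their sums overlapped at 220 kcal (3811 to 4483 and 3458 to 4324) and not at 160 kcal (4530 to 7396 and 3330 to 4386). Hgf, the growth factor for hepatocytes that stellate cells make, rose by 0.86 (SE 0.22, adjusted p = 0.0269), and Col1a2, a chain of type I collagen, fell by 0.84 (SE 0.20, adjusted p = 0.0205), with 0.94 and -0.48 at 220 kcal. Hgf signals were 50.0, 45.3 and 81.4 in TEN-220 against 158.9, 85.9 and 95.2 in EtOH-220, and 87.7, 70.0 and 69.6 in TEN-160 against 100.9, 146.4, 141.9 and 134.9 in EtOH-160. Col1a2 signals were 250.7, 206.9 and 226.9 in TEN-220 against 228.4, 139.4 and 136.7 in EtOH-220, and 283.7, 245.0 and 528.7 in TEN-160 against 119.0, 178.1, 136.2 and 154.2 in EtOH-160. Hgf was separate at both levels, and Col1a2 overlapped at 220 kcal. The call of Hgf was lost without any 1 of 3 arrays, TEN-220 replicates 1 or 2 or EtOH-160 replicate 3 (adjusted p of 0.0506 to 0.0632). The call of Col1a2 was lost without any 1 of 2 arrays, TEN-220 replicate 1 or EtOH-220 replicate 3 (adjusted p of 0.0515 to 0.0528). Of 11 endothelial, 7 cholangiocyte and 5 erythroid markers limma called 0, with 1, 0 and 1 at an unadjusted p under 0.05. Des, a marker of stellate cells, lay between 9.8 and 38.1, below background on every array.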

How the data were processed

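RNA of 13 hepatic samples was measured on 1-colour Affymetrix rat arrays. The authors deposited linear intensity values made with MAS5, per the submitters' processing notes, which give no version. The 2%-trimmed mean was 501 on 12 arrays and 133 on TEN-220 replicate 1, which was multiplied by 3.76. Signals below 9.4 (the 10th percentile) were set to it and taken to log2. Control probe sets (59) and the dimmest 40% of the others were left out. Of the 4308 probe sets with 1 gene, 4296 were matched to the gene table; 245 named several genes and 691 none. In R 4.3.3, limma 3.58.1 (lmFit on 4 means, then eBayes with trend) gave two-sided p-values, adjusted by Benjamini-Hochberg over 5244 probe sets. Precision is limited by the number of arrays: the median standard error of an average change was 0.18. Named genes, each by the probe set with the smallest p, are the 15 higher and 15 lower with the largest average change among genes that passed at both levels without overlap, 2 to 4 called members of lists, a fixed set of ethanol, lipid and endocrine genes, and the 8 with the most even changes. Lists (42) used each gene's brightest probe set. Members, lists and tests were chosen with earlier results of these data known. The procedure was tested on simulated data. Same-numbered arrays of different groups correlated at -0.11 to 0.09 in their deviations from the group means, so numbers were not used as pairs. A group whose geometric mean lay below background (46.6) enters a fold at that value. The fold is a lower bound where all arrays of the group lay below background. Promoters are RefSeq's (GRCr8). Alternatives were other scalings, floors, filters, variance models, weights, an additive model, a replicate block, other thresholds, each level alone and each array left out. Figures used Python 3.11.15 and matplotlib 3.10.9.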

Additional observations from a re-analysis of the deposited data

Results flagged for a closer look

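In EtOH-160, the group of 4, 7 of 88 named genes had 1 array far from the other 3 by Dixon's criterion, which chance meets in about 1 in 20 groups. Replicate 1 was low for Sds (786.5). Replicate 3 was high for Fmo1 (930.7), H2az1 (601) and Cpt1a (2315.8). Replicate 2 was low for Cbs (1090.8) and for A2m (771.8), and replicate 4 was low for Cat (3067.7).

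For 16 named genes the ethanol change differed between the energy levels at an adjusted p under 0.05 of limma's interaction term. The change at 160 kcal minus that at 220 kcal was 1.44 for Gnmt, 1.82 for Hmox1, 1.59 for Gpt, 0.98 for Haao, 2.67 for Fam111a, 0.99 for Inhbe, 1.78 for Scd, 1.04 for Aldh2, 2.48 for Cebpb, 1.95 for Afp and 2.41 for Fasn. It was -1.12 for H2az1, -1.7 for Hspa5, -2.94 for Igfbp1, -2.6 for Apob and -1.26 for Adh4. For Afp TEN-160 lay below background, so its difference has no measured size. TEN-160 is in all of these differences, and its 3 arrays were the 3 highest or the 3 lowest of all for 7 of the 16.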

How the results depend on the processing

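The direction of the 72 called named genes held under the 12 other ways of processing and with any array left out wherever they were tested, except that Fasn was at -0.30 with the 220 kcal arrays alone; 63 of the 72 were tested with the lowest 60% left out, and Ctxn1 in 9 of the 13 fits without 1 array; 57 of the 72 kept their call with any array left out in which they were tested. The count called in the average (493), with the same sign (414) and at both levels (120) became 103, 97 and 46 with the values as deposited (and 2 in the conjunction), where 1 of 26 lower and 18 of 30 higher genes named at both levels kept their call; 787, 656 and 184 with array weights; 145, 145 and 85 with an additive model; 106, 92 and 43 at an adjusted p under 0.01; and 796, 653 and 128 at 0.1. The 220 kcal arrays alone gave 0 calls and the 160 kcal arrays alone 980; the conjunction in place of the average gave 0. Whether the numbers pair the arrays is not known. Of 12 arrays, 6 correlated best with their own number. The median correlation was 0.041 between same-numbered arrays and -0.0066 between others. A replicate block gave 320, 258 and 91. Leaving out 1 array gave 268 to 528 called, 238 to 462 with the same sign, 71 to 115 at both levels and 0 to 0 in the conjunction. Of the 72 calls, 48 were lost as deposited, 16 in the additive model, 9 with a replicate block and 7 without the filter. Without the variance trend 6 were lost, with median centring 3 (Apoa2, Psmb9, Aldh1a1) and with quantile normalization 2 (Fgb, Apoa2). The 16 were Fgb, Cyp2d4, Ddah1, Apoa2, A2m, Agxt, Fdx1, Adh1c, Gnmt, Cth, Hmox1, Hspa5, B2m, Aldh1a1, Fasn and Inhbe. Uncalled genes turned sign as follows. Aldh2 was at 0.026 with arrays centred on their median, 0.29 as deposited, 0.0927 with weights, 0.0087 in the additive model, 0.49 at 160 kcal alone, and -0.1065 to 0.132 with 1 array left out (above 0 without EtOH-220 replicate 1 and without TEN-220 replicate 3). As deposited, Cyp2e1 was at 0.15, Cat at 0.0029 and Ahsg at 0.0883. With 220 kcal alone, Scd was at -0.50, Cpt1a 0.10, Cat 0.35, Cebpb -0.98, Afp -0.41 and Ahsg 0.0063; with 160 kcal alone, Cyp7a1 was at -0.0191, Igfbp1 -1.06, Apob -0.41 and Adh4 -0.50. The cause was not tested. Signal over background limits Sds, Sptan1, Syngr1, Dock9, Ctxn1 and Afp, for which the mean of a group lay below it. Single arrays lay below it for other genes too. Among these are Ank3 (TEN-160 replicate 2, 40.4), Hgf (TEN-220 replicate 2, 45.3) and Fam111a (EtOH-220 replicates 2 and 3).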
